A study of Homo sapiens with 6 samples.

Results

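The genes described here encode telomerase and shelterin, the complexes that extend and protect chromosome ends, in MV4-11 cells. The MV4-11 line comes from a human acute myeloid leukaemia and carries an internal tandem duplication in the receptor kinase gene FLT3. The 10 genes were taken by name from a table of 26364 genes. They are 5 telomerase genes (TERT, DKC1, NHP2, NOP10 and WRAP53) and 5 shelterin genes (TERF1, TERF2, TINF2, POT1 and ACD). The set was chosen with the difference between the groups in view, since TERT was already known to have one of the lowest fold changes in the table. For these 10 genes the fold changes below are therefore descriptions, given with their standard errors and without a test.

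In the study, 3 libraries came from MV4-11 cells given 22d at 10 nM, a compound known as an inhibitor of the deacetylase HDAC8, and 3 from cells given the vehicle DMSO. Both groups were harvested after 18 hours in the same medium, and both carry the line's own FLT3 duplication. The series concerns FLT3 and HDAC8 in leukaemia of this type, and its RNA comparison asks which transcripts differ between the treatments. All 6 libraries come from 1 cell line, and nothing in the labels ties them to separate cultures, so the standard errors and p-values cover only the spread between these libraries, which may be technical.

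Telomerase adds TTAGGG repeats to chromosome ends. TERT is its reverse transcriptase and copies a short template in the RNA subunit TERC. Dyskerin (DKC1), NHP2, NOP10 and GAR1 bind the H/ACA end of TERC and keep it stable, as they do for the H/ACA RNAs that guide pseudouridylation, and WRAP53 (TCAB1) brings the enzyme to Cajal bodies. Shelterin covers the repeats: TERF1 (TRF1) and TERF2 (TRF2) bind the double strand, POT1 binds the single-stranded overhang, ACD (TPP1) joins POT1 to TINF2 (TIN2) and recruits telomerase, and TINF2 links these parts together. In most adult tissues TERT is silent, while leukaemia lines generally express it.

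The template shows what TERC contributes. It is given here from the GENCODE release 29 transcript of TERC (GRCh38, chromosome 3, 169764520 to 169765060, minus strand), written as DNA, with the template at bases 46 to 56 in capitals.
TERC: attttttgtCTAACCCTAACtgagaaggg

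Promoter sequences are shown for 3 members, namely TERT, as the member furthest below DMSO, NOP10, as the other member with an E-box, and POT1, as the member furthest above DMSO. Each is a RefSeq window (GRCh38.p14) from 250 bases before to 50 bases after the annotated start, read on the strand of the gene. Capitals mark the E-box CACGTG, the core that MYC and MAX bind, and the GC box GGGCGG or its reverse complement CCGCCC, the core that SP1 binds.
TERT (chr5:1295019-1295318, minus strand): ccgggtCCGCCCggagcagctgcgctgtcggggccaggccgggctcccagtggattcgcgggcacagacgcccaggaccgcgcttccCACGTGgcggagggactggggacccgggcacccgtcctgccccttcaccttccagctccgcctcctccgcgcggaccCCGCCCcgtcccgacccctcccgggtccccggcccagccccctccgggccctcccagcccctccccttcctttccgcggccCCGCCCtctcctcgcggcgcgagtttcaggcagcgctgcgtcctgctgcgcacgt
NOP10 (chr15:34343087-34343386, minus strand): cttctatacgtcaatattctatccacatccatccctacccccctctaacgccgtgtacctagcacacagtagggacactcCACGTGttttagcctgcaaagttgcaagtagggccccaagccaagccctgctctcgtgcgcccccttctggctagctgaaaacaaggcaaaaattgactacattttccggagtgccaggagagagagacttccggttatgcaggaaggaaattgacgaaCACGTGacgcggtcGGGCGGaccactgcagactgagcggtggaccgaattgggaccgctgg
POT1 (chr7:124929776-124930075, minus strand): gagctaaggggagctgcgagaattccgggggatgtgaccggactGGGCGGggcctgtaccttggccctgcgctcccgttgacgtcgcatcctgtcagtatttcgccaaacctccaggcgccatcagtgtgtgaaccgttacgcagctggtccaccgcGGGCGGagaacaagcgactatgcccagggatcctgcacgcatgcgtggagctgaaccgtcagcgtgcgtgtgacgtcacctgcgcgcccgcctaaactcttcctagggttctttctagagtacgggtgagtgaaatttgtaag

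Of the 10 genes, 8 had a promoter in the RefSeq table, with 11 windows in all; TERF1 and TERF2 had none. CACGTG stood 163 bases before the start of TERT, and in NOP10 it stood 170 and 11 bases before the start. The TERT window ends in CACGT, and a match running past the edge of a window was not counted. The windows of DKC1, NHP2, WRAP53, TINF2, POT1 and ACD did not hold these letters. Of all 35116 promoter windows in the table, 7.26% held CACGTG. The GC box, searched on both strands, was present in 9 of the 11 windows of these genes and in 45.0% of all windows, with 3 copies in TERT, 5 in NHP2 and 4 in DKC1, where 2 of the copies overlap. Neither TTTCGCGC nor TTTGGCGC, both E2F core forms searched on both strands, occurred in any of the 11 windows; 1.15% of all windows held one of them. A match of letters is a description and does not show binding.

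The libraries held 20070076 to 23749257 reads in genes with 22d and 19995430 to 23353064 with DMSO. Replicate 3 with 22d had reads in the most genes, 19285 against 16268 to 17055 in the other libraries. The members without it, and without 22d replicate 1, are given after the shelterin genes. All 12 myeloid markers checked, among them SPI1, CD33, CSF1R and LYZ, had at least 10 normalized counts in every library. Of 10 markers of other lineages, CD3D and MS4A1 were at 0 throughout, while the keratin gene KRT8 lay between 140 and 381 normalized counts. The summed level of these 10 markers was 398 to 536 with 22d and 270 to 343 with DMSO, and their part in the results was not tested.

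TERT (chromosome 5, 1253147 to 1295069, minus strand) held 30.3, 45.6 and 60.4 normalized counts in the libraries with 22d, against 446, 429 and 360 in those with DMSO. A normalized count is the number of reads divided by the authors' size factor for the library. These values rest on 31, 50 and 72 reads with 22d and on 392, 415 and 328 reads with DMSO. Every 22d library lay far below every DMSO library, and the mean with 22d was 11.0% of the mean with DMSO. In bulk RNA, fewer cells with the transcript and less of it per cell cannot be told apart. The log2 fold change, 22d over DMSO, was -3.20 (SE 0.23, n = 3 each) on the log2(normalized count + 1) scale, and -3.05 in the authors' deposited table. Among the 13297 genes averaging 10 or more normalized counts over the libraries, this was the 14th lowest log2 fold change. With 1 library left out in turn it lay between -3.43, without 22d replicate 3, and -2.94, without 22d replicate 1.

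**Figure D1:**
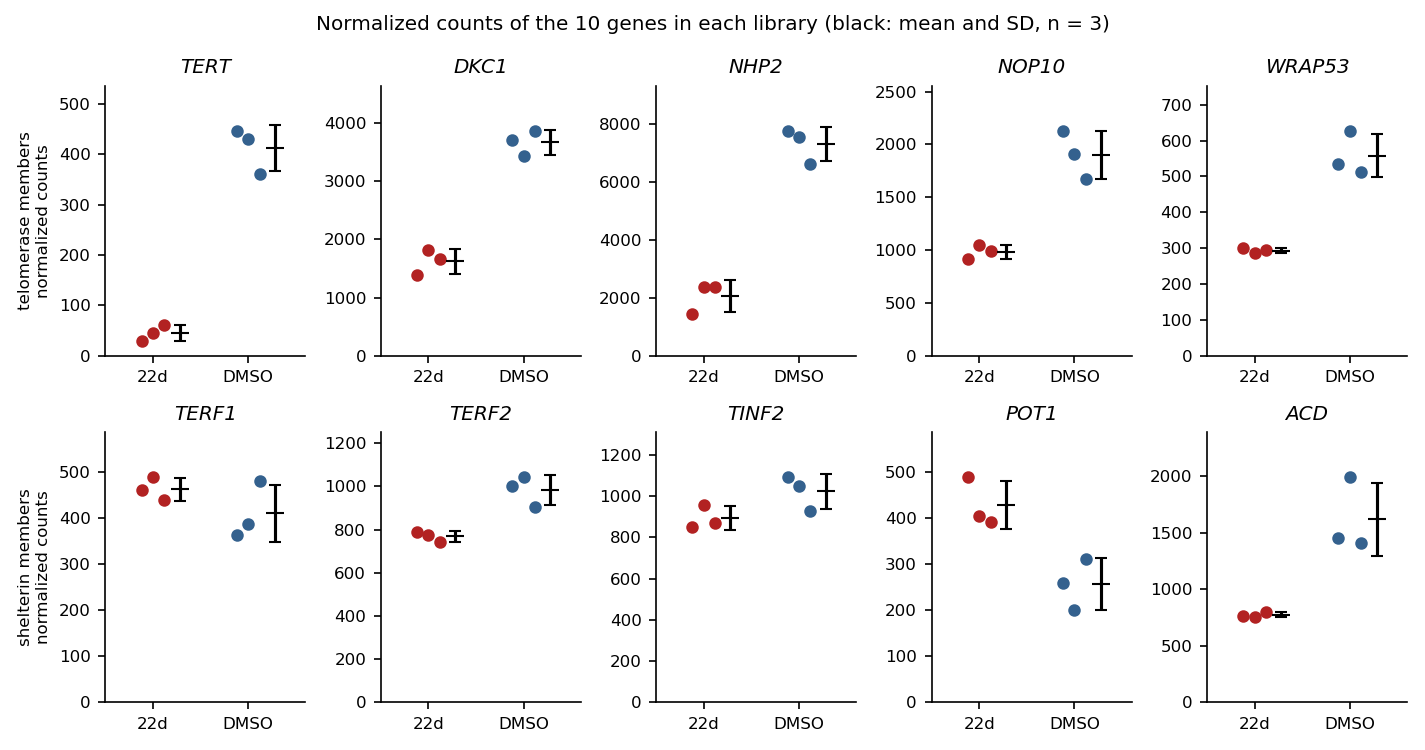
Normalized counts (y axis, each panel from 0) of the 10 genes in the 3 libraries with 22d (left, red) and the 3 with DMSO (right, blue); black marks are the mean and SD. The 5 telomerase genes in the upper row lie lower with 22d in every library, TERT at 30.3 to 60.4 against 360 to 446, whereas the shelterin genes in the lower row differ in direction.

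The protein subunits of the H/ACA part were lower with 22d as well, by less than TERT. DKC1 (chromosome X, 154762742 to 154777689), which encodes the pseudouridine synthase dyskerin, held 1393, 1818 and 1665 normalized counts with 22d, against 3707, 3432 and 3864 with DMSO. NHP2 (chromosome 5, 178149460 to 178153967) held 1433, 2365 and 2387 with 22d, against 7744, 7529 and 6621 with DMSO. NOP10 (chromosome 15, 34341713 to 34343177), the smallest protein of the group, held 914, 1048 and 991 with 22d, against 2127, 1909 and 1673 with DMSO. In none of the 3 genes did the groups overlap. The log2 fold changes were -1.86 for NHP2 (SE 0.17), -1.18 for DKC1 (SE 0.12) and -0.95 for NOP10 (SE 0.12), n = 3 each. Within the 22d libraries, replicate 1 was the lowest for TERT, DKC1, NHP2 and NOP10, and NHP2 had a log2 fold change of -1.62 without it. The snoRNA genes SNORA36A and SNORA56 and the microRNA gene MIR664B, which lie inside DKC1, had 0 reads in every library.

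WRAP53 (chromosome 17, 7686071 to 7703502), the gene of the Cajal body factor of telomerase, held 301, 286 and 294 normalized counts with 22d, against 534, 627 and 513 with DMSO, again without overlap. Its log2 fold change was -0.92 (SE 0.13, n = 3 each). NHP2 shares 414 of 1510 exonic bases with RMND5B on the opposite strand, a gene with a log2 fold change of -0.50 (adjusted p = 0.0031 in limma). As the strand setting of the counting was not given in the sources used here, reads from bases shared between a member and an opposite-strand gene could come from either, and their part in the values of the members was not tested.

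Counting those past the limma threshold, an adjusted p under 0.05 over all 13297 genes, 5 of 5 telomerase members were lower with 22d, and 2 of 5 shelterin members (ACD and TERF2) were lower and 1 (POT1) higher. The TERF2 call was lost, leaving 1 shelterin member lower, without 22d replicate 3, DMSO replicate 1 or DMSO replicate 2. With scaling by library totals TERF1 was called higher and TERF2 was not called, which left 1 shelterin member lower and 2 higher. Over all genes tested, 58.0% were called, 29.6% lower and 28.5% higher. Of all calls, 49.0% were higher, and 65.6% were with scaling by library totals. Groups without overlap and with 22d lower occurred in 33.3% of all genes, and with 22d higher in 32.1%. Because the set was chosen on this contrast, nothing is read from these counts. The median log2 fold change was -1.18 over the 5 telomerase genes and -0.20 over the 5 shelterin genes, beside 0.01 over all genes tested.

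The shelterin genes differed in direction. ACD (chromosome 16, 67657512 to 67660815), whose product TPP1 recruits telomerase to the chromosome end, held 764, 759 and 803 normalized counts with 22d, against 1457, 1988 and 1411 with DMSO. The groups were apart, the 22d libraries lay close together, and DMSO replicate 2 was the highest. Its log2 fold change was -1.04 (SE 0.13, n = 3 each) and -0.89 without DMSO replicate 2. POT1 (chromosome 7, 124822386 to 124929983), which encodes the partner of TPP1 on the single strand, held 489, 404 and 393 with 22d, against 259, 201 and 313 with DMSO. Here every 22d library was above every DMSO library, with a log2 fold change of 0.75 (SE 0.17, n = 3 each), between 0.58 and 0.90 with 1 library left out. The antisense gene POT1-AS1, which shares 111 exonic bases with POT1, had at most 3 reads in any library.

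TERF2 (chromosome 16, 69355561 to 69408571), whose product shields the end from the ATM kinase, held 791, 773 and 742 normalized counts with 22d, against 1003, 1042 and 906 with DMSO. The groups did not overlap, but the difference was small, with a log2 fold change of -0.35 (SE 0.11, n = 3 each). TERF1 (chromosome 8, 73008864 to 73048122), its paralogue, held 460, 487 and 438 with 22d, against 362, 387 and 479 with DMSO. DMSO replicate 3 lay among the 22d libraries, and the log2 fold change was 0.18 (SE 0.14). TINF2 (chromosome 14, 24239643 to 24242674) held 850, 959 and 868 with 22d, against 1090, 1051 and 929 with DMSO, so that the groups overlapped at a log2 fold change of -0.20 (SE 0.11). Scaling by library totals shifted the median of all genes to 0.22 and moved TERF2 to -0.13, TERF1 to 0.40 and TINF2 to 0.024, which turned the sign of TINF2. Without 22d replicate 3, the log2 fold changes were -3.43 for TERT, -1.98 for NHP2, -1.20 for DKC1, -0.95 for NOP10 and -0.92 for WRAP53. The shelterin genes then had -1.07 for ACD, -0.33 for TERF2, -0.18 for TINF2, 0.22 for TERF1 and 0.81 for POT1. All 10 kept their sign. Without 22d replicate 1, the values were -2.94 for TERT, -1.62 for NHP2, -1.07 for DKC1, -0.89 for NOP10 and -0.94 for WRAP53. ACD then had -1.03, TERF2 -0.37, TINF2 -0.16, TERF1 0.19 and POT1 0.65.

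Each complex has a protein subunit outside the set. GAR1, the remaining H/ACA protein, held 428, 560 and 585 normalized counts with 22d, against 1207, 1301 and 1196 with DMSO, and fell by 1.25 in log2 (SE 0.13, adjusted p = 5.8e-06 in limma). TERF2IP (RAP1), the shelterin protein bound to TRF2, held 1400, 1279 and 1226 with 22d, against 1374, 1512 and 1413 with DMSO. Its groups overlapped, and the log2 fold change of -0.14 (SE 0.11) did not pass (adjusted p = 0.28 in limma). TERC itself had 2, 6 and 9 reads with 22d and 5, 1 and 1 with DMSO, too few for the filter, so a difference was not detectable at this depth. Mature TERC carries no poly(A) tail, and the labels do not say whether the libraries were selected for one.

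**Figure D2:**
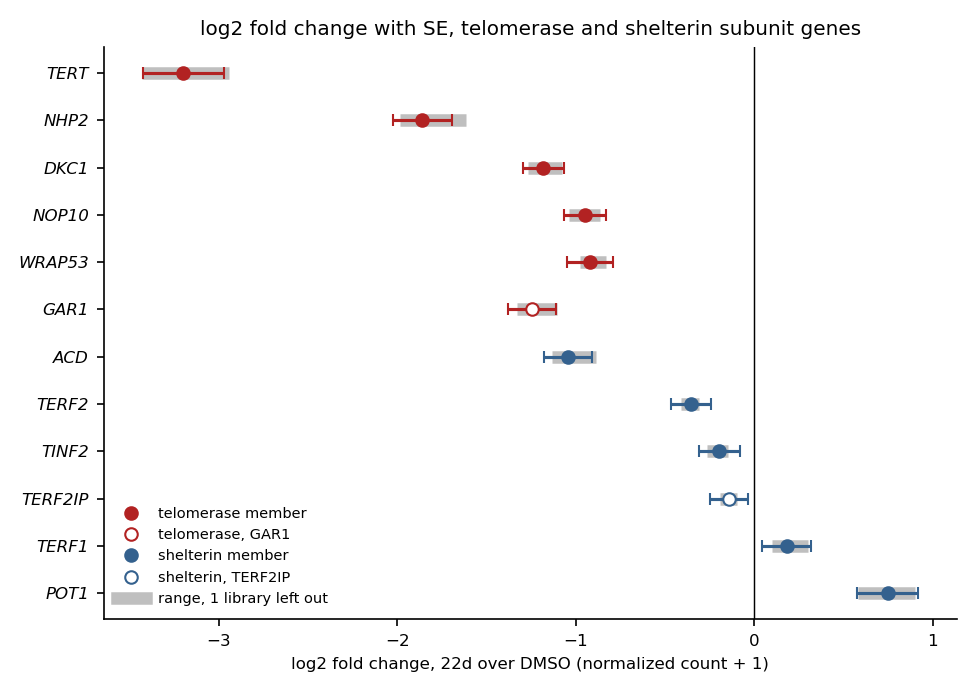
log2 fold change, 22d over DMSO (x axis), of the 10 members (filled) and of GAR1 and TERF2IP (open), with SE bars and, in grey, the range when 1 library is left out. The telomerase genes (red) lie between -3.20 and -0.92, and the shelterin genes (blue) between -1.04 and 0.75.

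Levels were compared between genes only after division by exon length, the union of the exons in GENCODE's basic set, which may differ from the authors' annotation. With 22d, the H/ACA genes were the highest, NHP2 at 2383 ± 629 and NOP10 at 1776 ± 121 normalized counts per kb, which overlapped in range, and then DKC1 at 528 ± 69.9 (SD, n = 3 each). TINF2 at 409, ACD at 375, TERF2 at 236 and TERF1 at 139 per kb followed, and POT1 at 105 ± 12.8, WRAP53 at 70.5 ± 1.86 and TERT at 11.3 ± 3.75 were the lowest. Apart from NHP2 and NOP10, no neighbours in this order overlapped. With DMSO, NHP2 at 8437 ± 689, NOP10 at 3435 ± 410 and DKC1 at 1191 ± 71.0 per kb led again, without overlap. ACD at 783, TINF2 at 470 and TERF2 at 302 came next, so that TINF2 stood above ACD with 22d and below it with DMSO. At the low end with DMSO, WRAP53 at 134 and TERF1 at 123 overlapped in range, as did TERF1 and TERT at 102 ± 11.4, and POT1 was the lowest at 63.1 ± 13.7.

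**Figure D3:**
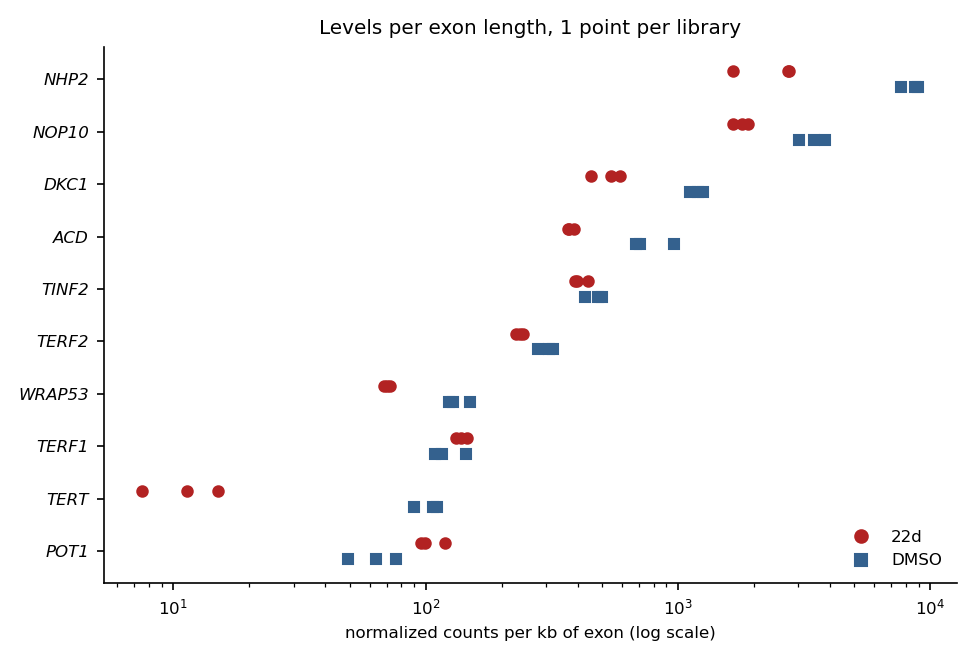
Normalized counts per kb of exon (x axis, log scale) for the 10 genes, 1 point per library, with 22d as red circles and DMSO as blue squares. TERT averages 11.3 per kb with 22d, below every other member, and 102 with DMSO, above POT1.

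Genes that assemble telomerase or mature TERC were listed apart from the members; 15 of 17 had enough reads to be tested. Of these, 8 fell with 22d, 1 rose and 6 did not pass, beside 29.6% lower and 28.5% higher over all genes tested. The median log2 fold change of the list was -0.31. The AAA+ ATPase genes RUVBL2 (reptin) and RUVBL1 (pontin), needed for the assembly of the enzyme, fell most. RUVBL2 averaged 3342 ± 523 normalized counts under 22d, against 9930 ± 1133 under DMSO (SD, n = 3), which is -1.58 on the log2 scale (SE 0.13, adjusted p = 7.3e-07 in limma), and RUVBL1 fell by 1.56. NOLC1, a Cajal body and nucleolar chaperone of H/ACA particles, fell by 1.48. The dyskerin chaperones fell too, SHQ1 by 0.87 and NAF1 by 0.75. TENT4B, which encodes the poly(A) polymerase PAPD5 that tags immature TERC for decay, rose by 0.41 (SE 0.13, adjusted p = 0.016 in limma), a call lost without DMSO replicate 1 (adjusted p = 0.065 in limma). PARN, the gene of the exonuclease that trims that tail, stood at a log2 value of 0.08 and missed the threshold (adjusted p = 0.62 in limma), with its sign turned without 22d replicate 1 or DMSO replicate 1. SMN1, which has the near-identical copy SMN2, was listed at 0 in every library.

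The second list holds TERF2IP, the CST complex and the enzymes that replicate and trim chromosome ends. Of 14 tested genes out of 15, 10 fell, 1 rose and 3 did not pass, beside 29.6% lower and 28.5% higher over all genes. The list median was -0.95. The subunits of DNA polymerase alpha, which CST brings to telomeres for fill-in synthesis, were among the lowest. POLA2 averaged 442 ± 87.6 normalized counts under 22d, against 1904 ± 302 under DMSO (SD, n = 3), which is -2.11 on the log2 scale (adjusted p = 2.8e-07 in limma), and POLA1 fell by 1.75. RPA3, a subunit of the general single-strand binding protein, fell by 1.86. PRIM1, PRIM2, RPA1 and RPA2 were called lower too, and like POLA1, POLA2 and RPA3 they also serve replication throughout the genome. Apart from these replication genes, the falls of the list were DCLRE1B, RTEL1 and SLX4. DCLRE1B, the gene of the telomere-end nuclease Apollo, fell by 1.13 (adjusted p = 8.9e-06 in limma). The CST subunit gene STN1 rose by 0.40 (SE 0.13, adjusted p = 0.017 in limma), a call lost without DMSO replicate 2 (adjusted p = 0.067 in limma), while CTC1 had -0.26 and did not pass (adjusted p = 0.12 in limma). RTEL1, a helicase gene that unwinds telomere loops, fell by 1.01 but held few reads, 22, 29 and 24 with 22d, against 52, 34 and 44 with DMSO. It overlaps the read-through gene RTEL1-TNFRSF6B, so its count is uncertain. The third CST subunit, TEN1, was listed at 0 in every library, and whether its expression or the counting accounts for this was not tested.

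Regulators of telomere length and chromatin split: of 16 tested genes out of 17, 7 rose, 6 fell and 3 did not pass. The list median was -0.01, and over all genes tested 28.5% were called higher and 29.6% lower. ATRX, which encodes a chromatin remodeller that deposits histone H3.3 at telomeres, held 598, 709 and 573 normalized counts with 22d, against 337, 208 and 354 with DMSO, and rose by 1.09 (SE 0.19, adjusted p = 0.00025 in limma). Its partner gene DAXX fell by 0.64 (adjusted p = 0.00035 in limma). ATM, the kinase that TRF2 holds in check, rose by 1.08, and HMBOX1 (HOT1), a telomere-repeat binding gene, by 0.97. The tankyrase genes TNKS and TNKS2, whose products release TRF1 from telomeres, rose by 0.46 and 0.47. The TNKS call was lost without 22d replicate 1 (0.26, adjusted p = 0.057 in limma) and without DMSO replicate 2 (0.40, adjusted p = 0.068 in limma). PINX1, which encodes a TERT-binding inhibitor of telomerase, fell by 0.87, the tankyrase-binding gene TNKS1BP1 by 1.12 and UPF1, a helicase gene of RNA decay, by 0.76.

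**Figure D4:**
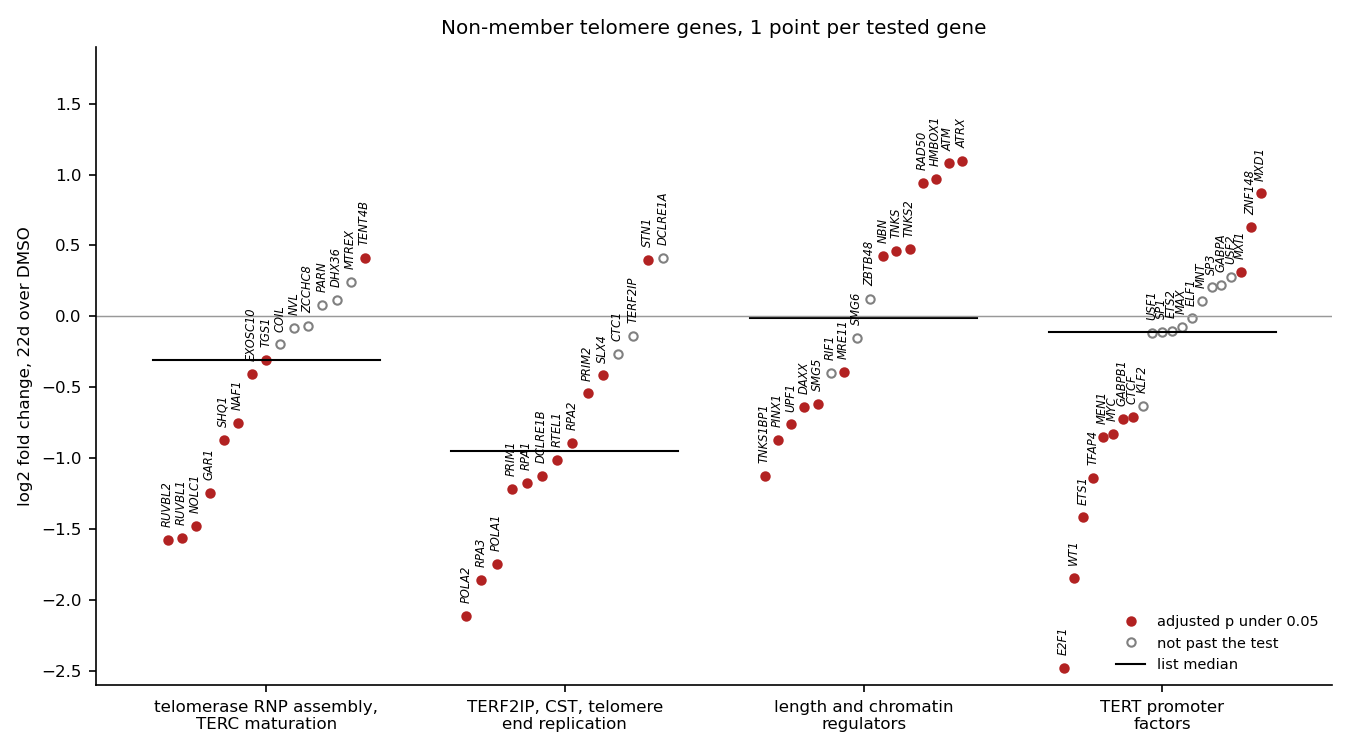
log2 fold change, 22d over DMSO (y axis), of every tested gene of 4 lists, filled where the limma adjusted p is under 0.05; lines are list medians. The list medians are -0.31, -0.95, -0.01 and -0.11 from left to right, and the replication enzymes POLA2, RPA3 and POLA1 lie lowest in the second list.

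Another list names factors reported to act on the TERT promoter. Of 21 genes, all tested, 8 fell, 3 rose and 10 did not pass, beside 29.6% lower and 28.5% higher over all genes. The list median was -0.11. MYC, which binds CACGTG together with MAX, held 6550, 10694 and 12021 normalized counts with 22d, against 17223, 17575 and 15582 with DMSO. The 22d libraries were all lower, replicate 1 the most, and MYC fell by 0.83 (SE 0.18, adjusted p = 0.0014 in limma). MAX stood at a log2 value of -0.07 and missed the threshold (adjusted p = 0.59 in limma). MXD1, a MAX partner that opposes MYC, averaged 683 ± 95.3 under 22d, against 374 ± 51.1 under DMSO (SD, n = 3), and rose by 0.87 (SE 0.15, adjusted p = 0.00022 in limma). MXI1, of the same family, rose by 0.32 (adjusted p = 0.026 in limma), a call lost without DMSO replicate 2 (adjusted p = 0.094), 22d replicate 1 (0.052) or 22d replicate 3 (0.071).

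Among the other promoter factors, the S phase activator E2F1 fell by 2.48 (SE 0.11, adjusted p = 1.1e-08 in limma). WT1, a zinc finger factor gene, held 87.0, 225 and 243 normalized counts with 22d, against 726, 600 and 509 with DMSO, and fell by 1.84 (SE 0.30, adjusted p = 0.00018 in limma). The authors' deposited table has -1.49 for WT1. ETS1 fell by 1.42 at a low level of 15.7 ± 5.34 under 22d, against 43.2 ± 10.1 under DMSO (SD, n = 3). ZNF148 (ZBP-89), which binds GC-rich promoters, rose by 0.63 (adjusted p = 0.0014 in limma). SP1, the GC box factor gene, had a log2 value of -0.11 (adjusted p = 0.53 in limma), and GABPA, an ETS factor gene, had 0.22 (adjusted p = 0.21 in limma). The signs of MAX and SP1 turned with scaling by library totals or quantile normalization, and that of SP1 also without 22d replicate 3. GABPA passed as higher with library totals (0.44). The part of these genes in the TERT difference was not tested. Scaling by library totals or quantile normalization put 7 genes of this list in the higher class in place of 3.

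TERT lies near the end of the short arm of chromosome 5. The 1 Mb on either side holds 32 other genes of the table by GENCODE positions, and 20 were tested. Of these, 11 fell, 4 rose and 5 did not pass, beside 29.6% lower and 28.5% higher over all genes tested. Their median was -0.61. The genes beside TERT, SLC6A18 and SLC6A19 on one side and SLC6A3 beyond CLPTM1L on the other, had at most 4 reads in any library. CLPTM1L, the nearest tested gene at 22.7 kb, averaged 4422 ± 750 normalized counts under 22d, against 5706 ± 433 under DMSO (SD, n = 3). It fell by 0.38 (adjusted p = 0.020 in limma), a call lost without 22d replicate 1 (-0.25, adjusted p = 0.075), without DMSO replicate 2 (adjusted p = 0.074), with scaling by library totals (0.25) and with quantile normalization (0.60), but kept with TMM scaling (0.030). SLC12A7, a potassium chloride cotransporter gene, rose by 0.42 and LPCAT1, a phospholipid remodelling gene, fell by 0.79. MIR4635, inside SLC12A7, had -0.83 and did not pass (adjusted p = 0.14 in limma). TRIP13, the gene of a mitotic checkpoint ATPase 334 kb away, had the lowest value of the 20, -2.58 (SE 0.16, adjusted p = 8.9e-08 in limma).

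**Figure D5:**
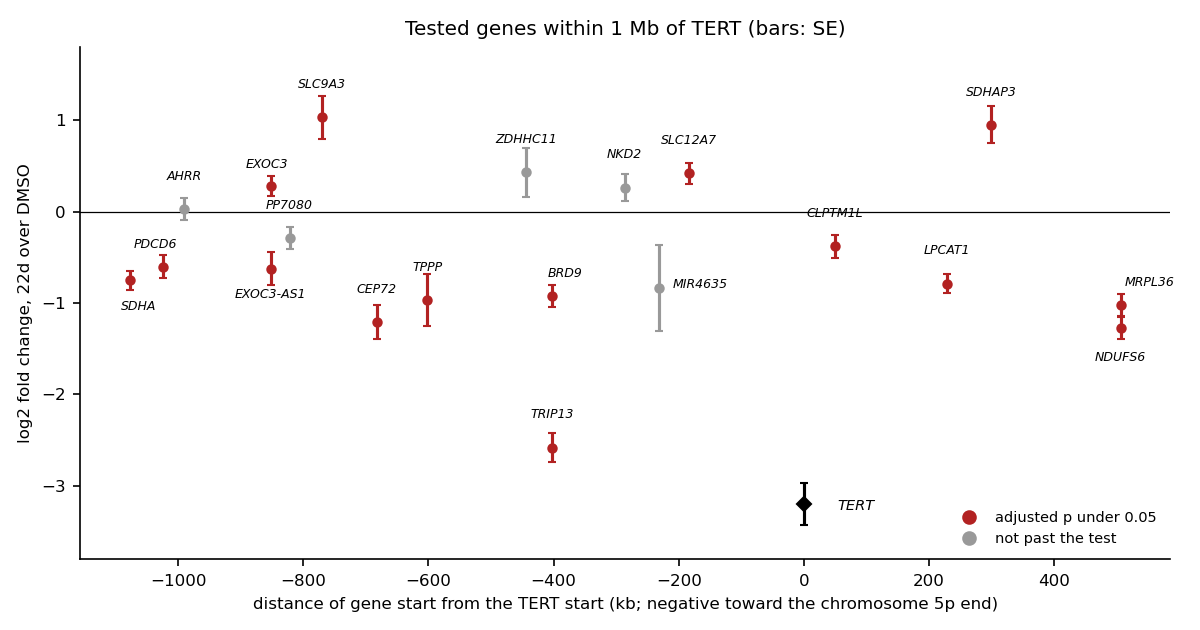
log2 fold change, 22d over DMSO (y axis), of the 20 tested genes within 1 Mb of TERT (circles, SE bars; red where the limma adjusted p is under 0.05) against the distance of their start from that of TERT in kb. TERT (diamond, -3.20) and TRIP13 (-2.58) lie below the other genes, which range from -1.27 to 1.03.

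The genes whose values followed those of TERT most closely were found by the root mean square difference of centred log2 values over the 6 libraries, among 10268 other genes averaging 100 or more normalized counts. The nearest were MYBL2 (0.18), CDC45 (0.19), UNG (0.20), E2F2 (0.21) and UHRF1 (0.24), in log2 units. MYBL2 is a transcription factor gene of the cell cycle, CDC45 encodes a part of the replicative helicase, UNG a uracil glycosylase, E2F2 an S phase transcription factor and UHRF1 a factor of DNA methylation upkeep. MYBL2 held 831, 1176 and 1137 normalized counts with 22d, against 9577, 8819 and 7288 with DMSO. UNG, with a log2 fold change of -3.23 close to that of TERT, held 243, 398 and 357 with 22d, against 3360, 2789 and 3067 with DMSO. Replicate 1 was the lowest 22d library in all 5 genes, as in TERT. The 5 genes were picked for nearness to TERT over these same libraries, so nothing is read from that shared order. Over 2 groups of 3 libraries this likeness rests mainly on the difference between the groups.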

How the data were processed

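RNA from MV4-11 cells was sequenced in 6 libraries, 3 with 22d and 3 with DMSO. DESeq2, HTSeq, STAR, cutadapt and FastQC are named, with the hg38 build, in the submitters' processing notes; versions, annotation and strand setting are not given in the sources used here. Per the file headers, the deposited values are a normalized signal in each library and its mean, next to columns for the log2 fold change that the authors computed, its error, a test score, a p-value and an adjusted p-value. Arm and number in the column names gave each column its library.

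Each per-library value is a read count divided by a size factor of the authors: multiplied back, 100% of values were whole reads to within 0.001. Groups were compared with limma-trend on log2(value + 1) for the 13297 genes averaging 10 or more, with no block and with Benjamini-Hochberg adjustment over all of them and a threshold of 0.05. The script was tested on simulated data. The recovered counts were used in edgeR and DESeq2 as alternatives; edgeR called 7723 genes, against 7718 with limma. Other alternatives changed pseudocount, filter, scaling and libraries. R 4.3.3, limma 3.58.1, edgeR 4.0.16, DESeq2 1.42.0, Python 3.11.15 and matplotlib 3.10.9 were used.

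The members, lists and tests were chosen with earlier results of these data known. Besides the members, the rule named TERC, GAR1, TERF2IP, MYC and E2F1, the 3 largest rises and falls called in each of 4 lists, the 4 tested genes nearest to TERT, genes overlapping a member, and the 5 nearest patterns. The table has no coordinates, so GENCODE release 29 (GRCh38) gave positions and lengths. Other genes of the lists, and TRIP13 among the neighbours, were named after their values were seen. Some items that the rule or the marker lists cover are not reported here.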

Additional observations from a re-analysis of the deposited data

How the results depend on the processing

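Of 1117 recomputed values, 1071 kept their direction and side of the threshold, or moved by less than the spread between libraries or by at most 1.5 times for counts. TERT was not among those that moved. Scaling by library totals, which shifted the median of all genes to 0.22 and the share of calls that were higher to 65.6% against 49.0%, gave log2 fold changes of -0.96 for DKC1, -1.64 for NHP2, -0.73 for NOP10, -0.70 for WRAP53, 0.40 for TERF1 (called higher there, so that 2 shelterin members were higher in place of 1), -0.13 for TERF2, 0.024 for TINF2, 0.97 for POT1 and -0.82 for ACD; of the genes outside the set, TERF2IP changed sign at 0.081, MAX at 0.15 and SP1 at 0.11. TERF2 was among the lower calls with all libraries, but not under library totals or without 22d replicate 3, DMSO replicate 1 or DMSO replicate 2, which left 1 shelterin member called lower in place of 2. Quantile normalization gave -0.94 for DKC1, -1.60 for NHP2 and -0.79 for NOP10, with MAX at 0.065 and SP1 at 0.14. With 1 library left out PARN lay between -0.019 and 0.17 and SP1 between -0.27 and 0.0029. The cause was not tested. With 1 library left out, log2 fold changes lay between -1.98 and -1.62 for NHP2. Genes called higher in the assembly and maturation list numbered 1, but 2 under library totals and 0 to 2 with 1 library left out. Those called lower in that list numbered 8, but 6 under library totals and 6 to 8 with 1 library left out. In the list of CST and end replication genes 1 was called higher, but 2 with edgeR, library totals or TMM scaling and 0 to 2 with 1 library left out. In the same list 10 were called lower, but 8 under library totals and 9 to 10 with 1 library left out. Among the TERT promoter factors 3 were called higher, but 7 under library totals or quantile normalization. Of the genes within 1 Mb of TERT 11 were called lower, but 9 under library totals and 9 to 13 with 1 library left out. Same-numbered deviations from the group means correlated at -0.03, -0.02 and -0.10 across genes, and differently numbered ones at -0.11 to 0.17. Deviations cancel within a group of 3, so these values cannot decide whether the replicate numbers pair the libraries. With the replicate number as a block, 7419 genes were called, against 7718, and MXI1 had an adjusted p of 0.057. For TERT, 31 to 72 reads with 22d limit the precision.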
